A study of Mus musculus with 6 samples.

Results

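The genes described here encode the scaffold of the excitatory postsynapse and the proteins that hold glutamate receptors in it. The set holds 38 genes, chosen by symbol from the 24060 genes of the count table, and all 38 passed edgeR's filter on low counts, as did 16449 genes in all. Their RNA was measured in retinal ganglion cells (RGCs), the neurons that send visual signals from the retina to the brain, at embryonic day 18 (E18) and at postnatal day 5 (P5). Each age had 3 samples, numbered 1, 3 and 4 at E18 and 6, 8 and 9 at P5, and all came from C57BL/6 mice with no injury, transgene or treatment named in their labels. Retinas were dissociated with papain, freed of macrophages with antibodies and then panned on anti-CD90 (Thy1), so every sample holds the cells that this antibody retained. Samples of one age carry only a number, and no label says whether they came from separate animals, litters or preparations, so a p-value here measures the spread between these samples.

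At an excitatory synapse, MAGUK proteins of the Dlg family bind the tails of glutamate receptors and channels beneath the membrane. SAPAP proteins (Dlgap genes) link the MAGUKs to Shank proteins, and Shank and Homer together form the deeper layer of the scaffold that reaches metabotropic receptors and actin. AMPA receptors, the fast glutamate receptors, are held by TARPs (Cacng genes), cornichons (Cnih genes) and Shisa proteins, and neuronal pentraxins gather them from outside the cell. RGCs receive glutamate from bipolar cells on their dendrites, and in the mouse retina most of these synapses form after birth.

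More of the scaffold genes rose than fell between the embryonic and the postnatal cells. Of the 38 members, 20 rose from E18 to P5 (52.6%), 5 fell (13.2%) and 13 did not pass the test, by edgeR's quasi-likelihood test with Benjamini-Hochberg adjustment over all genes tested. Among all genes tested, 22.5% rose and 20.8% fell. The median log2 fold change of the members, given throughout as P5 over E18, was 0.52, against -0.0047 for all genes. Rises of at least 2-fold were found in 9 members (9.53% of all genes tested), Dlg2, Dlgap1, Homer2, Lin7b, Baiap2, Tanc1, Cnih3, Shisa9 and Nptx2. No member fell by as much (6.39% of all genes), and the largest fall, in Kalrn, was 1.88-fold. In 23 members every P5 sample lay above every E18 sample (28.5% of all genes), in 5 every P5 sample lay below (27.6% of all genes), and in the other 10 the ages overlapped. Leaving out P5 replicate 8, which lay nearest to the E18 samples, gave 20 members higher and 5 lower, and leaving out any other sample gave 17 to 21 higher and 3 or 4 lower. Among all genes, 4661 of 16761 tested were higher and 4135 lower without P5 replicate 8. With any other single sample left out, 2438 to 3160 genes were higher and 2137 to 2756 lower, of 16683 to 16802 tested.

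**Figure D1:**
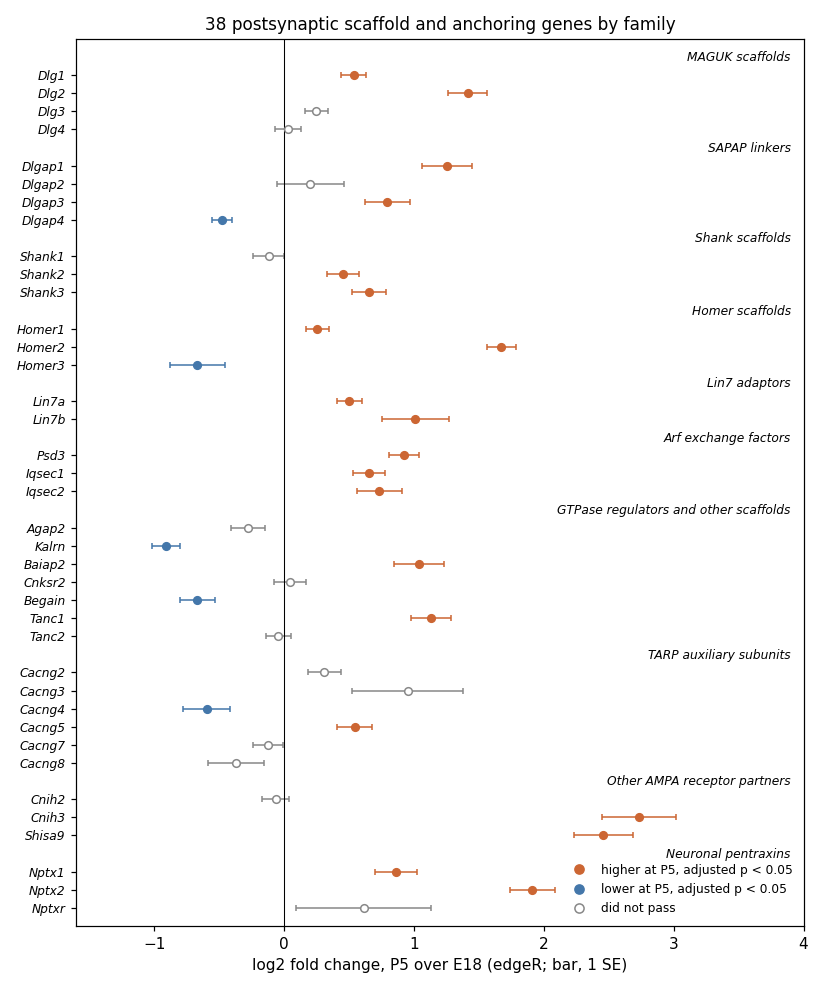
The log2 fold change (P5 over E18, horizontal axis) of each member is drawn with its standard error, grouped by family. The standard error was derived from the F statistic of the edgeR test. Filled points mark members past an edgeR adjusted p of 0.05. The 20 filled points to the right of 0 reach 2.73 in Cnih3, and the 5 to the left reach -0.91 in Kalrn.

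Between 81213639 and 114512853 reads per sample fell on genes, and the lowest count of any member in any sample was 14, in Nptxr. RGC markers were present at both ages, with the 15 marker genes, led by Nefl and Gap43, summing to 8720 to 9906 CPM (reads of a gene scaled to the library size) at E18 and 9216 to 10271 CPM at P5. The RGC factor genes Rbpms and Pou4f1 averaged 293 and 639 CPM at E18 and 315 and 577 CPM at P5. Of the 15, 5 were higher at P5 (Nefh, Slc17a6, Thy1, Nefl and Pou4f3), 4 were lower (Isl1, Gap43, Sncg and Ebf1) and 6 did not pass. Thy1, the protein used for the panning, averaged 247 CPM at E18 and 553 CPM at P5. The E18 samples differed in markers of other cells. The 14 markers of progenitors and dividing cells summed to 549, 242 and 108 CPM in E18 replicates 1, 3 and 4 and to 71.0 to 101 CPM at P5, and 9 of the 14 were lower at P5. Of 10 amacrine markers tested, 5 were lower at P5 (Slc32a1, Tfap2a, Tfap2b, Chat and Slc18a3), 1, Calb2, was higher and 4 did not pass. Gad1, the enzyme that makes GABA, did not pass (edgeR adjusted p = 0.071). It stood at 19.2, 35.1 and 0.49 CPM at E18 and at 1.86 to 3.91 CPM at P5. The summed amacrine list, which Pax6 and Calb2 dominate, was 1492 to 1707 CPM at E18 and 1790 to 2005 CPM at P5. The 9 markers of vessels and pericytes summed to 72.5, 64.5 and 16.5 CPM at E18 and to 14.6 to 17.8 CPM at P5, which was mostly Kdr at E18 (69.5, 62.9 and 14.1 CPM). Of the 7 tested, Kdr was lower at P5, while Pecam1, Tek and Rgs5, all under 4 CPM, were higher. The 12 markers of Müller glia and astrocytes summed to 407 to 454 CPM at E18 and to 276 to 329 CPM at P5. Most of this was Glul (means of 320 CPM at E18 and 251 CPM at P5) and Vim (87.6 and 38.7 CPM). Of the 11 tested, 3 were lower at P5 and 8 did not pass. The part of these cells in the results was not tested, and since the samples are bulk RNA, fewer cells of a type and less RNA per cell cannot be told apart.

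Among the MAGUKs, Dlg1 and Dlg2 rose, while Dlg3 and Dlg4 did not pass the test. Dlg2 was measured at 203, 183 and 158 CPM in E18 replicates 1, 3 and 4 and at 522, 384 and 544 CPM in P5 replicates 6, 8 and 9. The lowest P5 sample, replicate 8, was still well above the highest E18 value, and the rise was 1.41 ± 0.15 on the log2 scale (SE; edgeR adjusted p = 0.00036). Dlg3 stood at 100.2, 102 and 97.1 CPM at E18 and at 107, 123 and 125 CPM at P5. Its ages did not overlap, yet the difference of 0.25 ± 0.09 missed the threshold (edgeR adjusted p = 0.0548) and passed it with DESeq2 (adjusted p = 0.0387). Dlg1 rose by 0.53 ± 0.10, from 26.9 ± 2.2 to 39.0 ± 1.1 CPM (SD, n = 3). Dlg4, the MAGUK best known from mature excitatory synapses, averaged 154 ± 14 CPM at E18 and 157 ± 12.7 CPM at P5 (SD, n = 3), and its samples overlapped. Summed over the 4 genes, the CPM went from 448 to 481 at E18 to 703 to 877 at P5. Most of this rise was Dlg2, with means of 181 CPM at E18 and 483 CPM at P5.

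The SAPAP linkers moved in both directions. Dlgap1 stood at 21.7, 27.2 and 16.3 CPM at E18 and at 48.2, 46.3 and 61.3 CPM at P5, a rise of 1.26 ± 0.19 on the log2 scale (edgeR adjusted p = 0.0015). The P5 samples lay well above the E18 samples, which themselves differed by over 1.5 times. Dlgap3 also rose, from 63.5, 51.3 and 71.3 CPM to 82.0, 119 and 122 CPM (0.79 ± 0.17, edgeR adjusted p = 0.0070). Dlgap4 fell from 128.9, 129.0 and 130.4 CPM to 93.3, 94.5 and 90.8 CPM, a difference of -0.48 ± 0.08 (edgeR adjusted p = 0.0019). The samples of each age agreed closely in Dlgap4, with SDs of 0.82 and 1.87 CPM. Dlgap2 stayed near 2 CPM at both ages (1.88 ± 0.33 and 2.17 ± 0.60 CPM, SD, n = 3) and did not pass the test.

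In the Shank layer, Shank2 and Shank3 rose and Shank1 did not pass the test. Shank2, which had the highest level per length of the 3 at E18 and could not be told apart from Shank3 at P5 (4.70 ± 0.72 against 4.62 ± 0.65 CPM per kb of exon), stood at 37.3, 35.4 and 38.4 CPM at E18 and at 41.8, 56.4 and 53.7 CPM at P5. P5 replicate 6 lay closest to the E18 values, and the rise of 0.45 ± 0.12 (edgeR adjusted p = 0.018) was lost when E18 replicate 1, E18 replicate 3 or P5 replicate 9 was left out (adjusted p of 0.0544 to 0.0787). Shank3 rose by 0.65 ± 0.13, from 27.0 ± 2.6 to 42.5 ± 6.0 CPM (SD, n = 3), with or without any single sample. Shank1 averaged 15.6 CPM at E18 and 14.3 CPM at P5.

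Homer genes encode adaptors that bind Shank and group I metabotropic receptors, and all 3 were called, though not in one direction. Homer2 rose most clearly, from 23.6, 21.9 and 22.3 CPM at E18 to 69.9, 64.8 and 81.5 CPM at P5. The E18 samples lay within 2 CPM of each other, and the rise of 1.67 ± 0.11 on the log2 scale had the smallest adjusted p of the set (7.7e-05, edgeR). Homer1 stood at 72.9, 80.9 and 76.2 CPM at E18 and at 92.3, 97.1 and 85.3 CPM at P5. Its rise of 0.26 ± 0.09 only just passed (edgeR adjusted p = 0.0479), was lost without any one E18 sample or P5 replicate 6, and counts per gene do not separate its long form from the short form that neuronal activity induces. Homer3 fell from 31.4, 34.2 and 32.0 CPM to 16.57, 28.8 and 16.01 CPM. P5 replicate 8 stood near the E18 level, so that the fall of -0.67 ± 0.21 (edgeR adjusted p = 0.033) became -0.98 without that sample (adjusted p = 0.00028) and was lost without any other. Of the Homer3 exon bases, 25.4% also lie under Ddx49, a gene on the opposite strand that held 1806 to 2510 counts per sample and did not pass the test (log2 fold change -0.11). Whether counting used the strand is not given, so reads of the shared stretch may belong to either gene.

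The stretch just before the Homer1 start, as RefSeq places it, is shown because Elk-1 was the factor of chief interest in the study and this is one of only 2 member promoters that hold its core letters. It lies at chr13:93303637-93303756 (GRCm38.p6, plus strand), and capitals mark the core CCGGAAG, read here from the opposite strand, at 90 to 84 bases before the start. The second is upstream of Tanc1, a scaffold with ankyrin repeats, at chr2:59611922-59612041 (plus strand), with the core at 70 to 64 bases before the start.
Homer1: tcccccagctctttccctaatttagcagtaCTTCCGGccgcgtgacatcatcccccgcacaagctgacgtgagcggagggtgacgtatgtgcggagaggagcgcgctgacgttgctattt
Tanc1: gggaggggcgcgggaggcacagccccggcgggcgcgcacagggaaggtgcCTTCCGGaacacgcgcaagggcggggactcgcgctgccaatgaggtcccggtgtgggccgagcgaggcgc
Windows of 300 bases around the start were at hand for 29 of the 38 members, 50 windows in all, and were searched on both strands. The Elk-1 core was in 2 of the 50 (4%) and in 8.86% of all 32851 windows. The cyclic AMP response element TGACGTCA was in none of the 50 (1.79% of all), the CArG box bound by SRF was in 1, at a further start of Tanc1 (1.63% of all), and the RE1 element bound by REST was in none (0.0639% of all). These matches describe letters in a window and not binding.

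Both Lin7 genes of the set, which encode small adaptors that join MAGUK complexes, rose. Lin7a, by far the more abundant of the pair, had 81.4, 93.9 and 95.1 CPM at E18 and 129, 119 and 135 CPM at P5. Its rise was 0.50 ± 0.10 (edgeR adjusted p = 0.0043). Lin7b stood at 3.88, 3.22 and 4.05 CPM and rose to 6.79, 5.22 and 10.5 CPM, a difference of 1.01 ± 0.26 (edgeR adjusted p = 0.014). P5 replicate 9 held the highest Lin7b value, and without it the rise was 0.69 (adjusted p = 0.037), while leaving out E18 replicate 3 lost the call (adjusted p = 0.0569). Genes on the opposite strand, one of them Mtag2 with 105 to 251 counts per sample, cover 24.4% of the Lin7b exon bases, and their part in its count was not tested. A further Lin7 gene outside the set, Lin7c, averaged 477 CPM at E18 and 384 CPM at P5, above Lin7a at both ages. Every P5 sample of Lin7c lay below every E18 sample (27.6% of all genes). Its difference of -0.31 ± 0.12 did not pass (edgeR adjusted p = 0.0551).

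The 3 members that activate the small GTPase Arf, which controls receptor uptake from the membrane, all rose, and each call held without any single sample. Psd3 stood at 90.0, 94.9 and 95.8 CPM at E18 and at 174, 154 and 204 CPM at P5, a rise of 0.92 ± 0.11 (edgeR adjusted p = 0.00062). Iqsec1 rose by 0.66 ± 0.12, from 42.2 ± 2.3 to 66.6 ± 10.3 CPM, and Iqsec2, a gene of the X chromosome, by 0.73 ± 0.17, from 5.63 ± 0.86 to 9.36 ± 1.30 CPM (SD, n = 3).

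The remaining scaffolds and GTPase regulators were the most divided family, with 2 members up, 2 down and 3 that did not pass. Tanc1 stood at 77.2, 70.8 and 81.8 CPM at E18 and at 150.2, 140.4 and 212 CPM at P5, a rise of 1.13 ± 0.15 (edgeR adjusted p = 0.00097). The ages were far apart, and P5 replicate 9 was the highest. Baiap2, which binds actin regulators in spines, was at 6.62, 5.03 and 4.94 CPM at E18 and at 9.34, 13.7 and 11.1 CPM at P5 (1.04 ± 0.19, edgeR adjusted p = 0.0032). Kalrn, an exchange factor for Rac that shapes dendrites and spines, fell from 348, 374 and 341 CPM to 182, 216 and 167 CPM. The fall of -0.91 ± 0.11 (edgeR adjusted p = 0.00060) was the largest among the members, and it ranged from -1.002 to -0.83 as single samples were left out. Begain, which binds the MAGUK guanylate kinase domain, fell from 73.8, 69.4 and 80.6 CPM to 39.3, 55.1 and 46.5 CPM (-0.67 ± 0.13, edgeR adjusted p = 0.0045). Agap2, Cnksr2 and Tanc2 had log2 fold changes of -0.28, 0.05 and -0.04 and overlapped between the ages.

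**Figure D2:**
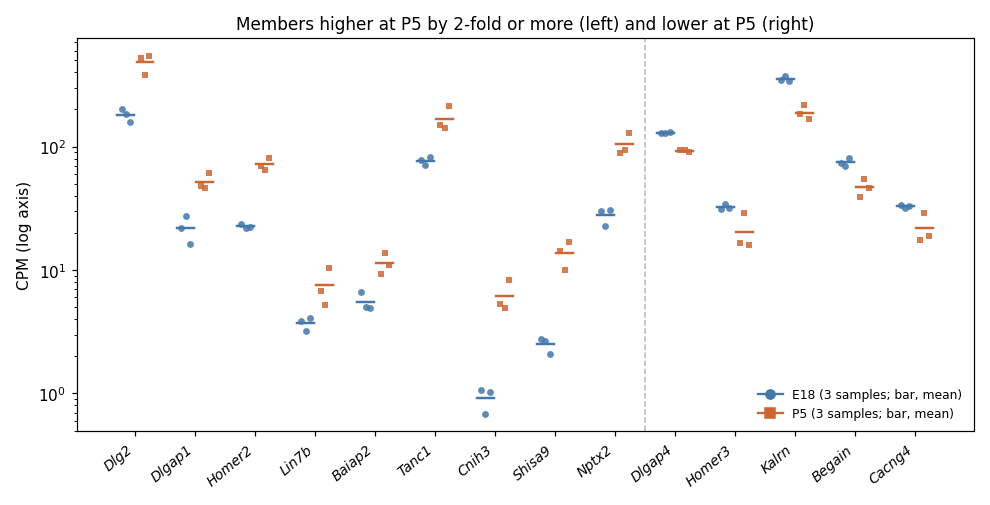
Each point is one sample's CPM on a log axis, for the 9 members that rose by at least 2-fold (left of the dashed line) and the 5 that fell (right), with bars at the mean of the 3 samples of each age. In every gene drawn the ages are separate, and P5 replicate 8, the middle square, is the highest P5 sample in all 5 genes on the right.

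The TARPs are auxiliary subunits of AMPA receptors, of which the type I members (Cacng2, Cacng3, Cacng4 and Cacng8) are best known for bringing receptors to the membrane, and Cacng5 and Cacng7 are of type II. They showed 1 rise, 1 fall and 4 members that did not pass. Cacng5 was the leading TARP at both ages, at 124, 135 and 144 CPM at E18 and at 175, 174 and 239 CPM at P5. Its rise was 0.54 ± 0.14 (edgeR adjusted p = 0.013), with replicates 6 and 8 nearly equal at P5 and replicate 9 above them. Cacng4 fell from 33.8, 31.6 and 33.0 CPM to 17.6, 28.8 and 18.7 CPM, a difference of -0.60 ± 0.18 (edgeR adjusted p = 0.027). As in Homer3, P5 replicate 8 stood close to the E18 samples, the fall was -0.83 without it (adjusted p = 0.00048), and the call was lost without any other sample. Cacng2, the stargazin gene, stood at 24.5, 24.5 and 22.6 CPM at E18 and at 25.0, 33.4 and 30.3 CPM at P5 and did not pass (0.31 ± 0.12, edgeR adjusted p = 0.072).

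In Cacng3 one E18 sample lay well below the others. The gene stood at 6.11, 7.88 and 1.89 CPM in E18 replicates 1, 3 and 4 and at 9.29, 8.79 and 12.7 CPM at P5. The difference of 0.95 ± 0.43 did not pass (edgeR adjusted p = 0.10), and without E18 replicate 4 it was 0.55 (adjusted p = 0.084). That sample also held the least Gad1 (0.49 CPM against 19.2 and 35.1) and Tfap2b (1.62 against 47.5 and 119 CPM), both amacrine markers. Of the amacrine list, only Slc6a9 (7.68 against 6.74 and 6.95 CPM) and Calb2 (854.5 against 854.2 and 748 CPM) were highest in it. Summed markers of progenitors (108 against 549 and 242 CPM) and of vessels (16.5 against 72.5 and 64.5 CPM) were also lowest there. The part of any of these cells in the Cacng3 level was not tested. Cacng7 and Cacng8, which lie close together on chromosome 7, had log2 fold changes of -0.12 and -0.37, and neither passed.

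Of the other AMPA receptor partners, the low genes rose steeply and the abundant one did not pass. Cnih2 stood at 94.6, 86.5 and 107 CPM at E18 and at 87.2, 93.2 and 95.2 CPM at P5, with a log2 fold change of -0.07 ± 0.10. Cnih3, its close paralog, was at 1.06, 0.69 and 1.03 CPM at E18 and at 5.29, 4.90 and 8.25 CPM at P5, which is 88, 77 and 93 reads against 469, 482 and 776. This was the largest rise of the set, 2.73 ± 0.28 on the log2 scale or 6.66-fold (edgeR adjusted p = 0.00035). Shisa9, which alters the desensitization of AMPA receptors, rose from 2.78, 2.64 and 2.10 CPM to 14.4, 10.01 and 17.0 CPM (2.46 ± 0.22, edgeR adjusted p = 0.00023). Per kilobase of exon, both genes remained far below Cnih2 at P5 (2.23 and 2.63 against 67.1 CPM per kb).

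Neuronal pentraxins are secreted proteins that cluster AMPA receptors, and at the synapses of RGC axons they act from the presynaptic side. Nptx2 stood at 29.8, 22.6 and 30.7 CPM at E18 and at 88.9, 94.5 and 129 CPM at P5, a rise of 1.91 ± 0.17 (edgeR adjusted p = 0.00023). Nptx1 stood at 68.8, 70.1 and 92.2 CPM and rose to 131, 119 and 171 CPM, by 0.86 ± 0.16 (edgeR adjusted p = 0.0036). In both genes P5 replicate 9 was the highest sample. Nptxr, the membrane-bound pentraxin, had only 35, 14 and 60 reads at E18 and 40, 73 and 60 at P5, under 1 CPM in every sample, and its difference of 0.61 ± 0.52 did not pass. RefSeq also annotates Npcd, a readthrough gene, across the whole of Nptxr (chr15:79786351-79834333 against chr15:79786351-79804709, GRCm38.p6), and Npcd itself held 4 to 63 reads. How reads shared by both were counted is not stated, so the Nptxr count may not hold all of its reads.

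Levels of different genes were compared as CPM per kilobase of exon, averaged over the 3 samples of an age. Cnih2 ranked first of the 38 at both ages, at 70.2 ± 7.7 at E18 and 67.1 ± 3.0 CPM per kb at P5 (SD, n = 3). At E18 it was followed by Cacng5 (35.1 ± 2.7) and Lin7a (27.2 ± 2.3), and these 3 did not overlap between neighbours in the order. Dlg3 and Begain came next at 17.1 ± 0.4 and 16.9 ± 1.3 and could not be told apart. At P5 Cacng5 (51.1 ± 9.7), Nptx2 (41.1 ± 8.6) and Lin7a (38.6 ± 2.5) followed Cnih2, and here Cacng5 overlapped Nptx2, and Nptx2 overlapped Lin7a. Nptx2 moved from rank 12 to rank 3 and Dlg2 from rank 11 to rank 5, while Kalrn went from rank 8 to rank 15 and Begain from rank 5 to rank 12. With coding length in place of exon length, 8 of the 10 highest members at P5 were shared with the exon-based order, and Cacng5 came before Cnih2. On that scale Nptx2 moved from rank 18 to rank 7, Dlg2 from 6 to 4, Kalrn from 9 to 18 and Begain from 13 to 22.

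**Figure D3:**
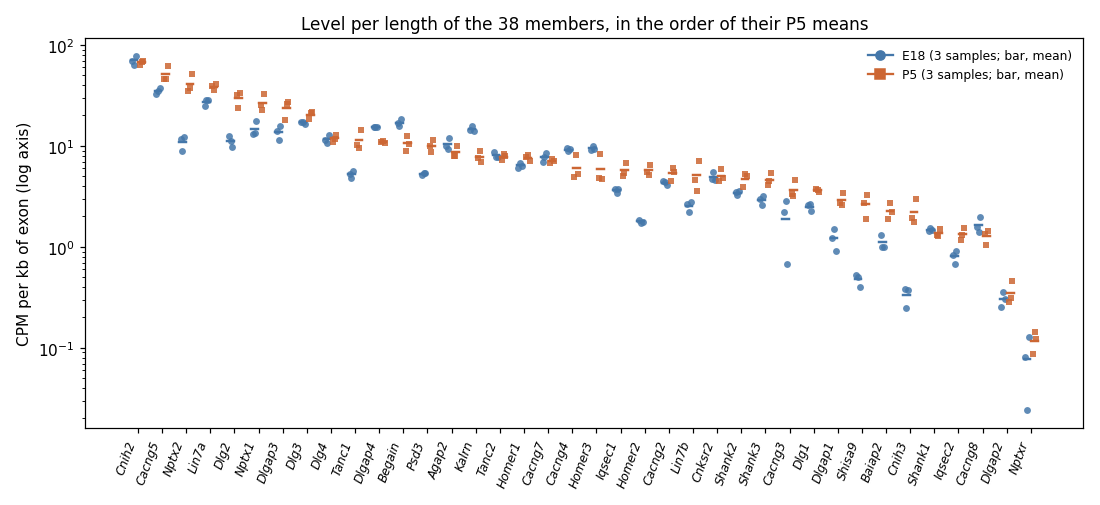
CPM per kilobase of exon (log axis) is plotted for each sample of the 38 members, ordered by the P5 mean, with bars at the mean of each age. Cnih2 leads at about the same level at both ages, whereas Nptx2, Dlg2 and Tanc1 reach the first 10 at P5 from lower E18 levels. Tanc1, at rank 10, overlaps Dlgap4 at rank 11, and it ranks 15 at P5 by coding length. Nptxr is last, with a count that may not hold all of its reads.

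Within families the make-up of the RNA shifted, given here as each member's share of the family's summed CPM per kb of exon, and these shares depend on the length used. Dlg3 held 40.3% of MAGUK RNA at E18 and 31% at P5 while Dlg2 went from 26.3% to 45.3%. By coding length Dlg3 held 21.9% and 15.7%, Dlg2 went from 35.3% to 56.7%, and Dlg4 led at E18 with 37.4%. Among the SAPAPs, Dlgap4 held 50.1% at E18 and 28.9% at P5, and Dlgap3 went from 44.9% to 62.5% (by coding length 59.9% and 36.3%, and 29.2% and 42.6%). Homer3 made up 53.6% of Homer RNA at E18 and 30.8% at P5, when Homer1 held 39.6% and Homer2 29.6%. By coding length Homer1 led at both ages, with 57.3% and 48.7%, Homer2 went from 17.6% to 40.1% and Homer3 from 25.1% to 11.2%. Nptx2 went from 42.4% to 60.4% of the pentraxins per kb of exon and from 26.5% to 42.7% by coding length, so that it lay above Nptx1 at P5 on the exon scale and below it on the coding scale. The pentraxin shares include Nptxr, whose count may not hold all of its reads. Cacng5 held 58.6% of TARP RNA at E18 and 68.5% at P5 (64.5% and 73.2% by coding length). Each share named moved in the same direction on both scales, except that of Homer1, which went from 36.3% to 39.6% by exon length.

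The balance between paralogs was then measured as the log2 ratio of their counts within each sample, which does not depend on the scaling between samples. In 11 of 14 pairs the ages did not overlap, and in 3 pairs they did. The members' own fold changes fix much of this, and 3 samples against 3 cannot give an exact two-sided permutation p below 0.1, which is the value in all 11 pairs (0.127 after adjustment over the 14). Separation of the ages was also common among single genes, with 28.5% of all genes tested above and 27.6% below at P5. No such share was computed for other gene pairs. Tanc1 lay below Tanc2 in every E18 sample, at -0.89, -0.86 and -0.66, and above it in every P5 sample, at 0.33, 0.02 and 0.68. For Cacng2 over Cacng4 the count ratios were -0.47, -0.37 and -0.54 at E18 and 0.51, 0.21 and 0.69 at P5. The count ratio changed sign in both pairs and in no other. A sign compares counts, not levels, since the genes differ in length. Per kb of exon Tanc1 was below Tanc2 at E18 (5.26 against 8.05 CPM per kb) and above it at P5 (11.5 against 7.81). The mean of Cacng2 was below that of Cacng4 at both ages (4.33 against 9.18 at E18 and 5.37 against 6.07 at P5). In P5 replicate 9, however, Cacng2 was above Cacng4 (5.51 against 5.24). By coding length Cacng2 was below Cacng4 at E18 (24.6 against 33.5) and above it at P5 (30.5 against 22.1), so this order depends on the length used. Cnih2 exceeded Cnih3 by 6.71 ± 0.25 at E18 and by 3.94 ± 0.37 at P5 (log2, SD, n = 3), the largest shift of the 14. Dlg2 over Dlg3 went from 0.85 ± 0.16 to 2.01 ± 0.33, Dlgap1 over Dlgap4 from -2.60 ± 0.38 to -0.85 ± 0.25, and Homer1 over Homer3 from 1.24 ± 0.02 to 2.21 ± 0.40. Dlg4 over Dlg1 moved the other way, from 2.51 ± 0.25 to 2.01 ± 0.16. Cacng3 over Cacng4 shifted by 1.80, and by 1.17 without E18 replicate 4. In the 3 overlapping pairs, Lin7a over Lin7b, Iqsec2 over Iqsec1 and Cacng8 over Cacng7, the differences were -0.45, 0.09 and -0.25.

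**Figure D4:**
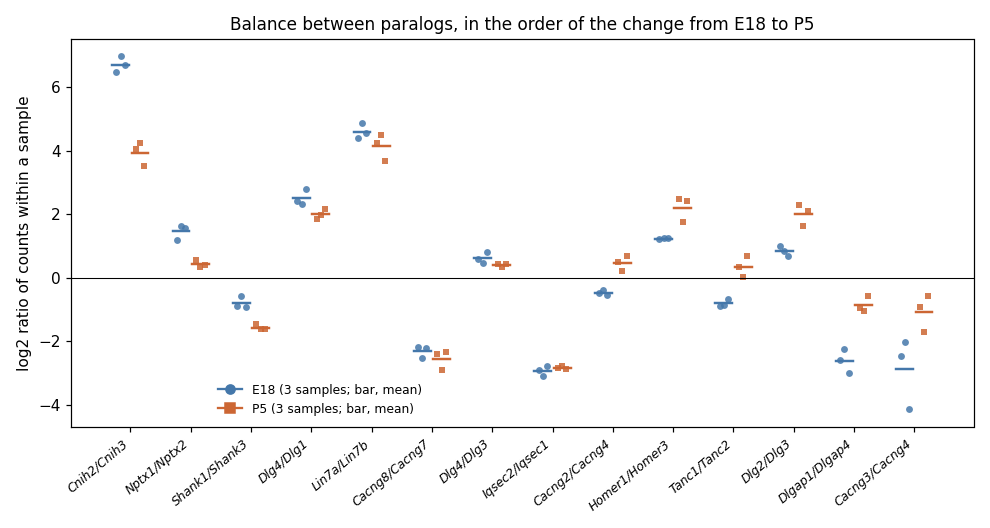
For each of 14 paralog pairs the log2 ratio of counts (first gene over second, vertical axis) is plotted for every sample, with bars at the age means and the pairs ordered by the change from E18 to P5. Cnih2/Cnih3 falls most, from 6.71 to 3.94, and the count ratios Tanc1/Tanc2 and Cacng2/Cacng4 cross 0, which for genes of unequal length does not compare their levels.

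Glutamate receptor subunits, which the members anchor, moved mostly the same way. Of 18 subunits tested, 14 rose (77.8%, against 22.5% of all genes tested) and 2 fell (11.1%, against 20.8%). Their median log2 fold change was 0.84, against -0.0047 for all genes. All 4 AMPA receptor genes rose, Gria1 by 0.44 ± 0.09, Gria2 by 0.74 ± 0.10, Gria3 by 0.74 ± 0.14 and Gria4 by 0.60 ± 0.10 (edgeR adjusted p of 0.0053, 0.00080, 0.0039 and 0.0023). By the rule for naming, the largest rises among subunits above 10 CPM were in the kainate receptor genes Grik3 (1.70 ± 0.21) and Grik1 (1.34 ± 0.15) and in the metabotropic receptor gene Grm5 (1.04 ± 0.19), whose protein binds Homer, while Grik2 fell (-1.14 ± 0.16).

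Paralogs of the members that lie outside the set were divided evenly, with 6 higher, 6 lower and 8 that did not pass among 20 tested, and a median of -0.15. That is 30% in each direction, against 22.5% higher and 20.8% lower among all genes tested. Psd, an Arf activator like Psd3, rose by 1.13 ± 0.14, Iqsec3 by 0.91 ± 0.16 and Cnih4 by 0.37 ± 0.10. Dlg5 (-0.72 ± 0.13), Shisa7 (-0.52 ± 0.12) and Agap3 (-0.44 ± 0.13) fell. Psd2, another paralog of Psd3, fell too (-0.38 ± 0.13, edgeR adjusted p = 0.045). Between 3 and 9 of these paralogs were called lower across the other settings and left-out samples, and between 2137 and 4135 of all genes.

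Of 36 other genes of the excitatory postsynapse, 12 rose, 2 fell and 22 did not pass, with a median of 0.17. The shares were 33.3% higher and 5.56% lower, against 22.5% and 20.8% of all genes tested. Frmpd4, which binds MAGUKs and Homer, rose most among those above 10 CPM (2.12 ± 0.15), followed by Grip2, an AMPA receptor adaptor (1.18 ± 0.17), and the kinase gene Camk2a (0.94 ± 0.19). The actin-binding protein gene Dbn1 and Rph3a fell, both by 0.49 on the log2 scale (-0.49 ± 0.10 and -0.49 ± 0.09). Without E18 replicate 3 the rises in this list were 7 in place of 12, and those among all genes 2438 in place of 3709.

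Inhibitory synapses have their own scaffold. Of 6 of its genes tested, 3 rose (50%, against 22.5% of all genes tested) and 3 did not pass, with a median of 0.46. The 3 that rose were Iqsec3, which is also a paralog of 2 members, Slitrk3 (0.85 ± 0.12) and the gephyrin gene Gphn (0.65 ± 0.15). Gphn stood at 116, 128 and 131 CPM at E18 and at 212, 149.6 and 229 CPM at P5, with replicate 8 again the P5 sample nearest to E18.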

How the data were processed

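RNA of immunopanned RGCs was sequenced by the authors after TruSeq library preparation with RiboZero Gold (the labels say polyA RNA). Reads were aligned to mm10 with STAR 2.4.0 and raw counts per RefSeq gene, made with HT-seq 0.6.1, were deposited by the authors. The strand setting and the handling of ambiguous reads are not given in the sources used here. The authors' normalized counts, fold changes and p-values, in the same table, were not used. The E18 replicate 1 column carries further numbers in its name and was matched by its age and the number 1. It may be a pool of several preparations, which the sources used here do not say.

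The raw counts, with TMM factors applied to the library sizes, went into edgeR 4.0.16 and its quasi-likelihood test (R 4.3.3, filterByExpr, Benjamini-Hochberg over 16449 genes, threshold 0.05). Each standard error of a log2 fold change is its absolute value divided by the square root of the F statistic of that test. The script was tested on simulated data. Within an age, sampling noise accounted for little of the difference between samples, with chi-square values of 30.5 to 141 per degree of freedom, and none was merged. CPM uses TMM library sizes (factors 0.973 to 1.02). Exon lengths and overlaps come from the GENCODE vM21 annotation of GRCm38, with all 38 symbols matched, and promoter windows from RefSeq.

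The members and lists were chosen with earlier results of these data known. Per-sample values are given for members called with at least a 2-fold change, for members whose call was lost on leaving out 1 sample, and for the highest member per length in each family, and Kalrn, Cacng2, Cacng3 and Nptxr were added after their values were seen. From each other list, up to 3 called genes with the largest change in each direction and a mean of at least 10 CPM are named. The Gria genes, Lin7c, Psd2 and those named with the cell markers were added. Alternatives were DESeq2 1.42.0, other edgeR tests, RLE and upper-quartile normalization, other filters and leaving out each sample.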

Additional observations from a re-analysis of the deposited data

How the results depend on the processing

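The number of members called was 24 to 26 across the 7 other settings (RLE or upper-quartile normalization, no filter, a filter of 1 CPM in 3 samples, DESeq2 and edgeR's exact and likelihood ratio tests) and 20 to 25 as each sample was left out. Of the 25 members called, 24 stayed called in all 7 settings, the exception being Homer1 without a filter (adjusted p = 0.076), and 20 stayed called also without each sample. The members higher at P5 numbered 17 to 21 and those lower 3 to 5 on leaving out samples, the calls lost being those of Homer1, Homer3, Shank2, Lin7b and Cacng4. All genes called ranged from 4575 (without E18 replicate 3) to 8796 (without P5 replicate 8), against 7135, fewer samples being tested in each. The median log2 fold change of the members stayed between 0.44 and 0.56. The direction reversed, on leaving out samples, in 5 members that had not passed the test and lay near 0: Dlg4 (range -0.030 to 0.10, negative without E18 replicate 3 or P5 replicate 9), Dlgap2 (-0.044 to 0.36, negative without P5 replicate 9), Cnksr2 (-0.055 to 0.14, negative without E18 replicate 4 or P5 replicate 8), Tanc2 (-0.077 to 0.028, positive without E18 replicate 1 or P5 replicate 6) and Cnih2 (-0.14 to 0.020, positive without E18 replicate 4), and the cause was not tested. No paired analysis was possible because the ages share no replicate number. The number of pairs without overlap was 11 or 12 of 14 under every alternative run. Nptxr had at most 73 reads in a sample, and the part of reads shared with Npcd in this low count was not tested.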
